A study of Bos taurus with 20 samples.

Results

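The genes of glycolysis and glycogen metabolism were described in neck muscle of cows given growth promoters and of control cows, before and after cold storage. The set was 38 listed genes, 25 of glucose entry, glycolysis and lactate export and 13 of glycogen synthesis and breakdown, out of 14583 genes that carried a symbol on the array. Members were found by the symbol of their probes, older symbols included, and the probe with the highest mean signal stood for the gene. A probe was found for 37 members, none was matched for HK2, and 36 members were measured well enough to be tested. PGM2 was above background on 3 of 20 arrays and was not tested. ENO1 was tested but was above background on 6 arrays only, ENO2 on 17, SLC16A3 on 19, and the other 33 tested members on all 20.

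Muscle stores glucose as glycogen and breaks it down when work or slaughter raises the need for ATP. Phosphorylase, switched on by phosphorylase kinase, frees glucose phosphate from glycogen, and the glycolytic enzymes turn it into pyruvate and, without oxygen, lactate. After slaughter this route carries on without blood supply, and the lactate and protons it leaves set the pH of the meat. Glucocorticoids such as dexamethasone are known to act on glucose use and on glycogen in muscle.

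The samples were bovine neck muscle taken at a slaughterhouse and kept under vacuum at 4 °C. The 5 control cows (K3, K6, K8, K9 and K10) had no stated treatment. The 5 treated cows (DE27, DE29, DE30, DE31 and DE32) were given a daily oral dose of 0.4 mg dexamethasone each over 31 days. They also had 6 weekly intramuscular injections of 5 mg estradiol each. Every cow was sampled at 0 and again at 14 days of storage, and the 20 arrays form 4 groups of 5: control day 0, control day 14, treated day 0 and treated day 14. The design asks which transcripts differ between treated and control animals at each day and which change with storage. Both agents were given together, so their parts cannot be told apart. The age of the cows was not given in the sources used here. Values below are log2 signal after each array was set to a common 75th percentile, and listed values follow the order of animals just given. Differences between groups are in log2 units ± SE from limma's moderated test over 15430 probes, with Benjamini-Hochberg adjustment over those probes.

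The tissue carried its defining genes: 8 of 8 muscle defining genes, among them ACTA1, CKM and DES, were tested. In whole muscle, fewer cells of a type and less RNA per cell cannot be told apart. Array signal was lower after storage. The 75th percentile of the signal before scaling averaged 808 ± 112 (SD, n = 5) at day 0 and 430 ± 97.9 at day 14 in controls. In treated animals these means were 823 ± 98.9 and 380 ± 54.4. The later array was the dimmer of the pair in 10 of 10 animals (two-sided exact permutation p = 0.00195, the smallest these pairs can give). All values below are therefore relative to an array whose overall signal moved. Storage day and slide nearly coincide: slides 1 and 3 held day 0 arrays only and slides 2 and 4 day 14 arrays only, so within-slide storage values rest on slides 5 and 6. For controls that is 1 day 0 array (K10) against K3 and K8 at day 14 on slide 6, and for treated animals the pair of DE32 on slide 5. Each slide held both treatments.

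Treated animals differed from controls at day 0 in 2 enzymes that set the pace of glycolysis. PFKFB2 was higher by 1.22 ± 0.22 (adjusted p = 0.0209) and PFKFB4 was lower by 2.28 ± 0.50, a 4.84-fold difference (adjusted p = 0.0417). Both encode bifunctional enzymes that make and remove the fructose bisphosphate that activates phosphofructokinase. No enzyme of the glycolytic route, no transporter and no glycogen gene passed the test at day 0. The count of 2 of 36 members (5.56%) stands against 2.45% of all tested probes (1.32% higher, 1.13% lower), so the number called is no result about the set as a whole. The median difference was -0.08 over the 24 tested glycolysis genes, -0.06 over the 12 tested glycogen genes and -0.01 over all tested probes.

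PFKFB2 encodes the isoform first known from heart. In control animals at day 0 its log2 signal was 8.21, 8.28, 7.98, 7.96 and 7.97, and in treated animals 9.46, 9.96, 9.12, 8.61 and 9.37. Every treated animal was above every control animal. At day 14 the levels were 7.57, 7.52, 8.15, 8.01 and 8.53 in controls and 10.51, 8.46, 9.50, 7.06 and 8.29 in treated animals. The treated animals had spread out by then and the groups overlapped, with DE31 lowest and DE27 highest of all 10, and the difference of 0.81 ± 0.53 did not pass (adjusted p = 0.628). The day 0 difference was 1.72, 1.06 and 1.49 within scan days 1, 2 and 3. The call was lost without control animal K9 (1.19, adjusted p = 0.0595) and held without each of the other 9 animals, and it was lost in a fit over all 20 arrays with animal as a random block (adjusted p = 0.183).

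PFKFB4, an isoform induced by low oxygen, moved the opposite way. In control animals at day 0 it stood at 12.95, 13.27, 12.42, 14.28 and 14.02, and in treated animals at 12.37, 11.27, 9.53, 11.42 and 10.97. The highest treated animal, DE27, was just under the lowest control animal, K8, and DE30 was the lowest of all. At day 14 the controls were at 13.03, 12.55, 12.14, 12.15 and 12.91 and the treated animals at 12.27, 11.16, 12.45, 12.47 and 10.12. The groups overlapped there, and the difference of -0.86 ± 0.44 did not pass (adjusted p = 0.524). Over the mean of each animal's pair of arrays PFKFB4 was lower by 1.57 ± 0.33 in treated animals (adjusted p = 0.0271). The day 0 difference was -1.83, -2.71 and -1.66 within scan days 1, 2 and 3. With 5 animals a side the call was close to the threshold. At day 0 it was lost without K3 (adjusted p = 0.0613), K6 (0.0772), K9 (0.107), K10 (0.0868), DE29 (0.0846), DE30 (0.0531), DE31 (0.0736) or DE32 (0.0867), while the difference stayed between -2.39 and -1.88 in these 8 fits. With slide as a block its adjusted p was 0.0571. Over both days it was lost without K3 (0.0516), K6 (0.0513), K9 (0.0727), K10 (0.0595), DE29 (0.0654) or DE30 (0.0629).

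The other genes of this control point did not pass at day 0. PFKFB3, the inducible isoform, was at 13.59, 12.19, 11.80, 13.89 and 14.64 in controls and 11.21, 11.45, 10.55, 12.04 and 13.49 in treated animals, a difference of -1.47 with a 95% interval from -2.87 to -0.08 (adjusted p = 0.263). PFKFB1, the isoform of liver and muscle, differed by -0.65 ± 0.21 (adjusted p = 0.143). FBP2, the muscle fructose bisphosphatase that runs the phosphofructokinase step backwards, differed by -0.17 ± 0.21 (adjusted p = 0.731). At day 0, 4 of these 5 genes were below 0 and PFKFB2 alone was above. At day 14 the differences were 0.28 ± 0.61 for PFKFB3 and -0.00 ± 0.31 for PFKFB1.

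**Figure D1:**
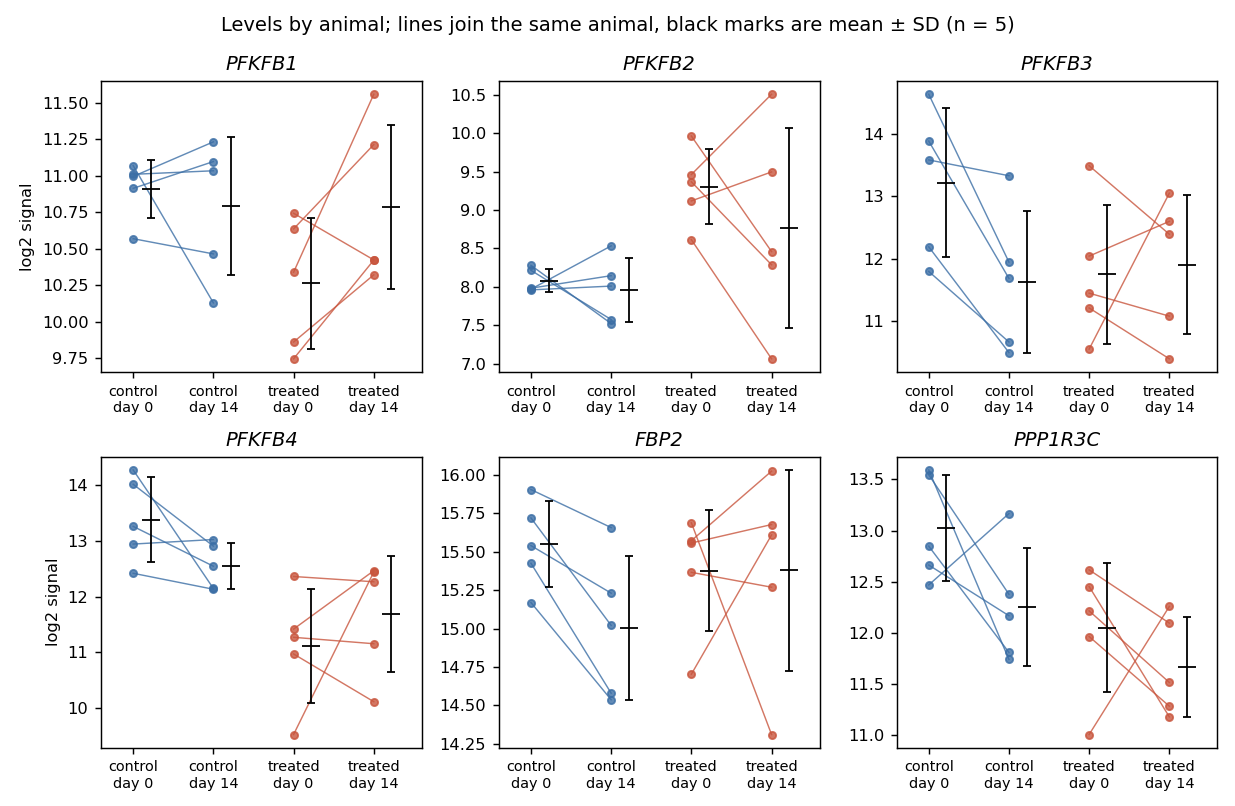
Log2 signal of 5 genes of fructose bisphosphate control and of PPP1R3C (vertical axes, each gene on its own scale) in control (blue) and treated (red) animals at day 0 and day 14; lines join the samples of 1 animal and black marks give the mean ± SD of 5 animals. At day 0 the treated animals lie above all controls for PFKFB2 and below all controls for PFKFB4, and at day 14 the groups overlap for both.

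PPP1R3C encodes a subunit that brings protein phosphatase to glycogen and so favours synthesis. PPP1R3C stood on day 0 at 12.85, 13.55, 12.47, 13.59 and 12.66 in controls and 12.62, 12.21, 11.00, 11.96 and 12.45 in treated animals. On day 14 its levels were 11.81, 12.38, 13.17, 11.74 and 12.17 in controls and 12.09, 11.51, 12.26, 11.28 and 11.18 in treated animals. The groups overlapped at each day, and neither the day 0 difference of -0.97 ± 0.33 (adjusted p = 0.154) nor the day 14 difference of -0.59 ± 0.31 (adjusted p = 0.550) passed. Averaged over both days per animal, PPP1R3C was lower by 0.78 ± 0.17 in treated animals (adjusted p = 0.0373). That call was lost without K6 (0.0749), K8 (0.0913), K9 (0.0876), K10 (0.0504), DE29 (0.0774), DE30 (0.0777), DE31 (0.0639) or DE32 (0.0664), with differences from -0.84 to -0.70, and under normexp background correction (-0.74, adjusted p = 0.110). PFKFB4 and PPP1R3C were the 2 members called over both days (5.56%, both lower, against 3.38% of all tested probes, 1.97% lower and 1.41% higher), and PFKFB2 at 1.01 ± 0.31 was not called there (adjusted p = 0.103).

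Among the enzymes of the glycolytic route, LDHB and HK1 came closest at day 0. LDHB, the lactate dehydrogenase subunit of oxidative tissue, was at 14.92, 15.16, 15.19, 15.25 and 14.63 in controls and 15.33, 15.79, 16.04, 15.83 and 15.38 in treated animals. All treated animals were above all controls, yet the difference of 0.65 ± 0.18 did not pass (adjusted p = 0.0928); with slide as a block it was 0.72 and passed (adjusted p = 0.0338). HK1, the hexokinase that traps glucose in the cell, was at 11.29, 11.06, 10.97, 10.53 and 10.76 in controls and 11.78, 11.51, 11.51, 11.47 and 11.11 in treated animals, with 1 treated animal inside the control range. Its difference of 0.56 ± 0.18 did not pass (adjusted p = 0.128). LDHA, the subunit of fast muscle, differed by -0.33 ± 0.19 (adjusted p = 0.418). Among the abundant muscle enzymes, the 95% interval of the day 0 difference ran from -0.42 to 0.26 for ALDOA, -0.50 to 0.37 for TPI1, -0.67 to 0.07 for ENO3 and -0.22 to 0.50 for PYGM. PGAM2, also abundant, spread more than these, with an SD at day 0 of 0.44 in control and 0.50 in treated animals. Groups did not overlap for 3 members at day 0: LDHB and PFKFB2 higher, where 2.92% of all tested probes were, and PFKFB4 lower, where 2.96% were.

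At day 14 no member passed the test for treatment, against 0.0713% of all tested probes (0.0259% higher and 0.0454% lower, 11 probes; 1610 had an unadjusted p under 0.05). The 4 members with the smallest p were PYGB, the brain form of phosphorylase (-0.71 ± 0.22, adjusted p = 0.321), the glucose transporter SLC2A1 (-0.65 ± 0.24, adjusted p = 0.408), PFKFB4, and glycogen synthase GYS1 (0.51 ± 0.27, adjusted p = 0.548). PYGB was at 10.25, 10.99, 10.63, 10.86 and 10.38 in controls and 9.88, 9.91, 9.52, 9.79 and 10.49 in treated animals. Only DE32 reached into the control range. SLC2A1 was at 5.94, 6.89, 7.10, 6.46 and 6.80 in controls and 5.78, 6.01, 5.72, 5.96 and 6.49 in treated animals, which overlapped. GYS1 was at 13.69, 14.16, 13.89, 13.73 and 14.29 in controls and 15.16, 14.90, 14.28, 14.17 and 13.79 in treated animals, which also overlapped. No member had groups free of overlap at day 14, where 1.18% of all tested probes did with treated animals higher and 1.11% with them lower. The median difference at day 14 was 0.25 over glycolysis genes and 0.33 over glycogen genes, against 0.04 over all tested probes. Within slides this median moved with the animals: over all members it was 0.06 on slide 2, 0.61 on slide 4 and -0.72 on slide 5.

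**Figure D2:**
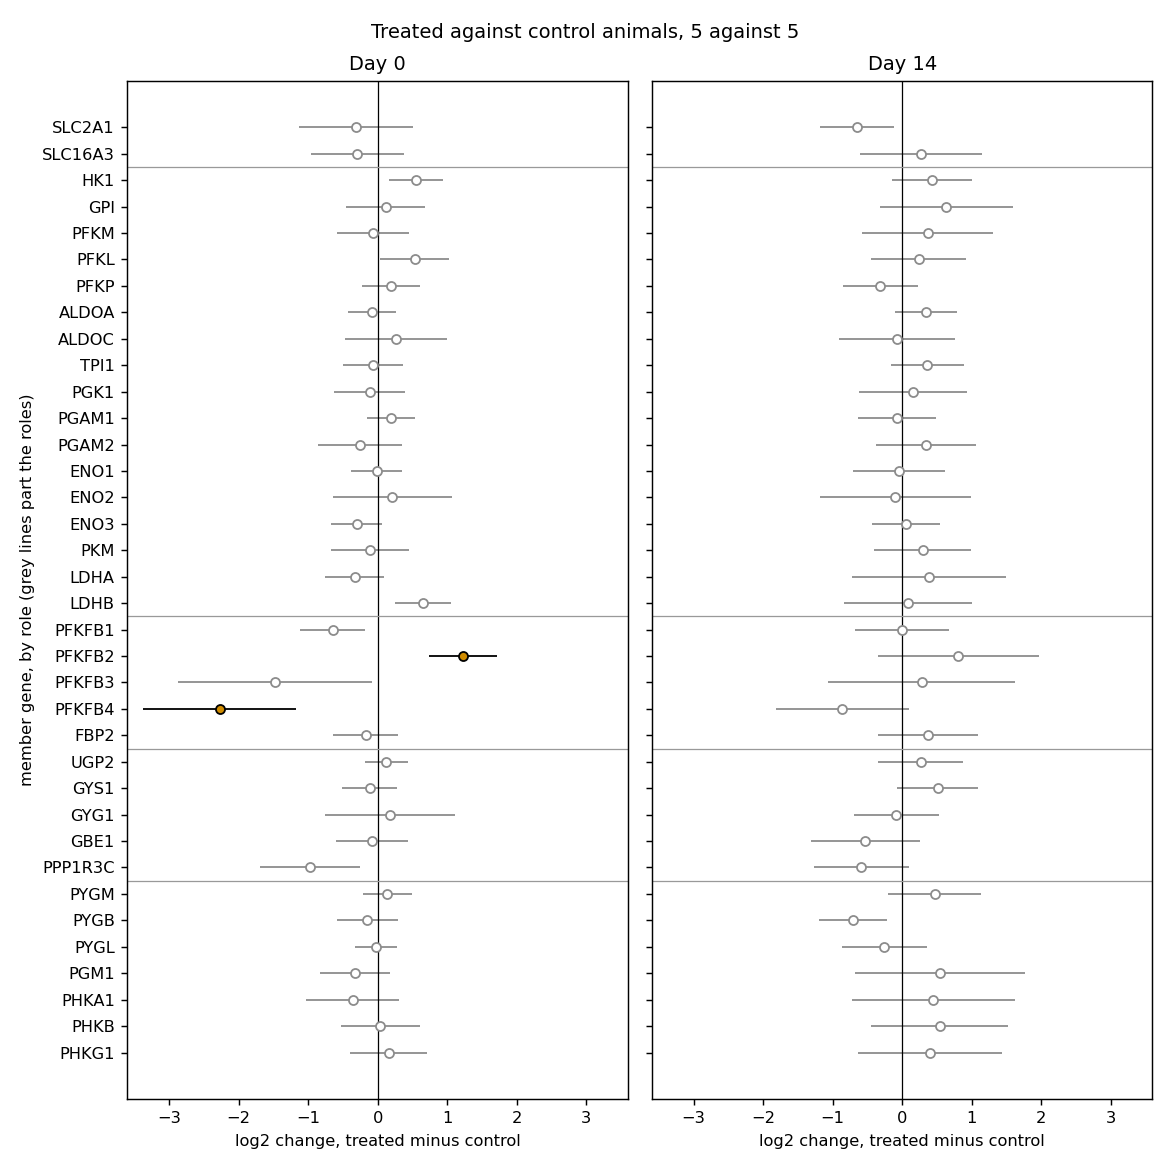
Difference between treated and control animals for the 36 tested members (horizontal axis, log2 units, with 95% intervals) at day 0 and at day 14, ordered by role; filled points have an adjusted p under 0.05. At day 0 only PFKFB2 (1.22) and PFKFB4 (-2.28) are filled, and at day 14 none is.

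Other genes of the pathway were counted from lists written with the members. At day 0, 0 of 18 other glycolysis and gluconeogenesis genes, 1 of 18 other glycogen genes (GYG2, a glycogen primer, lower by 0.91 ± 0.20, adjusted p = 0.0390), 2 of 8 other glucose and lactate transporters (both higher) and 4 of 29 genes of energy sensing and fuel choice (3 higher, 1 lower) passed. These are 0%, 5.56%, 25.0% and 13.8% of the lists, beside 2.45% of all tested probes (1.32% higher and 1.13% lower). The transporters were SLC2A8, a glucose transporter of internal membranes (0.98 ± 0.13, adjusted p = 0.00782), and BSG, the chaperone that carries monocarboxylate transporters to the surface (0.98 ± 0.16, adjusted p = 0.0157). MLXIPL, the sugar-responsive transcription factor, was higher by 1.54 ± 0.24 (adjusted p = 0.0134), with DLAT of the pyruvate dehydrogenase complex (0.73 ± 0.15, adjusted p = 0.0305) and the hypoxia factor EPAS1 (0.74 ± 0.16, adjusted p = 0.0342). ARRDC4, an arrestin that restrains glucose uptake, was lower by 0.89 ± 0.16 (adjusted p = 0.0212). Over both days PRKAG2, a regulatory subunit of AMP-activated kinase, was higher by 1.29 ± 0.18 (adjusted p = 0.00378). SLC2A4, the insulin-responsive transporter, differed by -0.20 ± 0.30 (adjusted p = 0.789) and PDK4, a kinase that restrains pyruvate oxidation, by 0.16 ± 0.80 (adjusted p = 0.946) at day 0. PRKAG3 was above background on 3 arrays and was not tested.

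Markers of other cells at day 0 were as follows. For adipocytes 6 of 6 tested markers of 7 with a probe were above 0 and 1, CIDEA, passed; their summed linear signal ran from 388 to 3599 in control and from 813 to 2122 in treated animals, and LEP was not above background. For nerve and Schwann cells 5 of 6 tested markers were below 0 and none passed, with sums from 5846 to 10161 and from 4071 to 9229, and SOX10 was not above background. For endothelium 7 of 7 were above 0 and none passed, with sums from 3973 to 5293 and from 5196 to 6735. Above 0 were 5 of 6 smooth muscle and pericyte markers, 5 of 6 tested macrophage markers, 4 of 7 fibroblast markers and 3 of 3 tested red blood cell genes. Below 0 were 4 of 5 tested lymphocyte markers, 6 of 8 muscle defining genes, 7 of 10 fast fibre genes and 5 of 10 slow fibre genes. None of these passed at day 0, where 1.32% of all tested probes passed as higher and 1.13% as lower. Over both days PMP22 and NCAM1 of the nerve list passed as lower, as did 1.97% of all tested probes. The part of these cells in the member differences was not tested.

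More members were called for storage than for treatment, as were more of all tested probes. Over all 10 animals 12 of 36 members were lower at day 14 (33.3%, against 23.3% of all tested probes) and 5 were higher (13.9%, against 31.2%), 47.2% in all against 54.6%. The members count 1 probe per gene. Over the 11247 tested genes counted in that way, 25.6% were lower, 27.3% higher and 52.9% either. The number called is therefore no result about the set as a whole. The members that fell lay at several points of the route, not at all of them. They were all 3 measured subunits of phosphorylase kinase, the phosphoglucomutase PGM1, the phosphofructokinase of muscle PFKM, GPI, PGK1 and LDHA. The others were the lactate exporter SLC16A3, the glucose transporter SLC2A1, and UGP2 and PPP1R3C of glycogen synthesis. PYGM, TPI1, PGAM2, ENO3 and PKM were not called in the main scaling. The members that rose were PFKP, ENO2, ALDOA, PYGB and PYGL. For no member did the test of a difference in storage change between treated and control animals pass (adjusted p at least 0.997; no probe on the array passed, and 583 had an unadjusted p under 0.05). For 10 of the 12 that fell the log2 change ran from -2.06 to -1.11, relative to the array's scale; SLC2A1 and PPP1R3C fell by less.

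The choice of scale bears on all of this. The median change of all tested probes was 0.10 in the main scaling, -0.21 with arrays centred on their medians, -0.02 after quantile normalization and 0.47 after normexp background correction. Members called were 5 higher and 12 lower in the main scaling, 3 and 19 with median centring, 3 and 12 with quantile normalization and 5 and 14 with normexp. Of the 15430 tested probes the counts in the same order were 4819 and 3599, 2726 and 5925, 3743 and 4180, and 8213 and 2631. Main scaling and median centring differ by a shift per array only. Their values relative to the median of all probes are therefore the same and are no separate checks. Relative to the median of all probes in the same setting, the 12 members that fell were below it in each of these 4 settings. Of the 5 that rose, PFKP, ENO2, PYGB and PYGL were above it in each, by as little as 0.07 for PFKP under normexp, though the ENO2 call held in 2 of the 4 settings only, and ALDOA was at 0.46, 0.46, 0.04 and -0.14. With slide as a block, which rests on slides 5 and 6 for this comparison, 5 members passed, all lower: SLC16A3 (-2.25, adjusted p = 0.00986), PFKM (-1.75, adjusted p = 0.0308), PGK1 (-1.37, adjusted p = 0.0468), UGP2 (-1.61, adjusted p = 0.00507) and PHKG1 (-2.24, adjusted p = 0.0130). Over all tested probes 1467 were higher and 807 lower with slide as a block. With animal as a block 5 members passed as higher and 11 as lower, beside 4781 and 3533 of all tested probes.

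**Figure D3:**
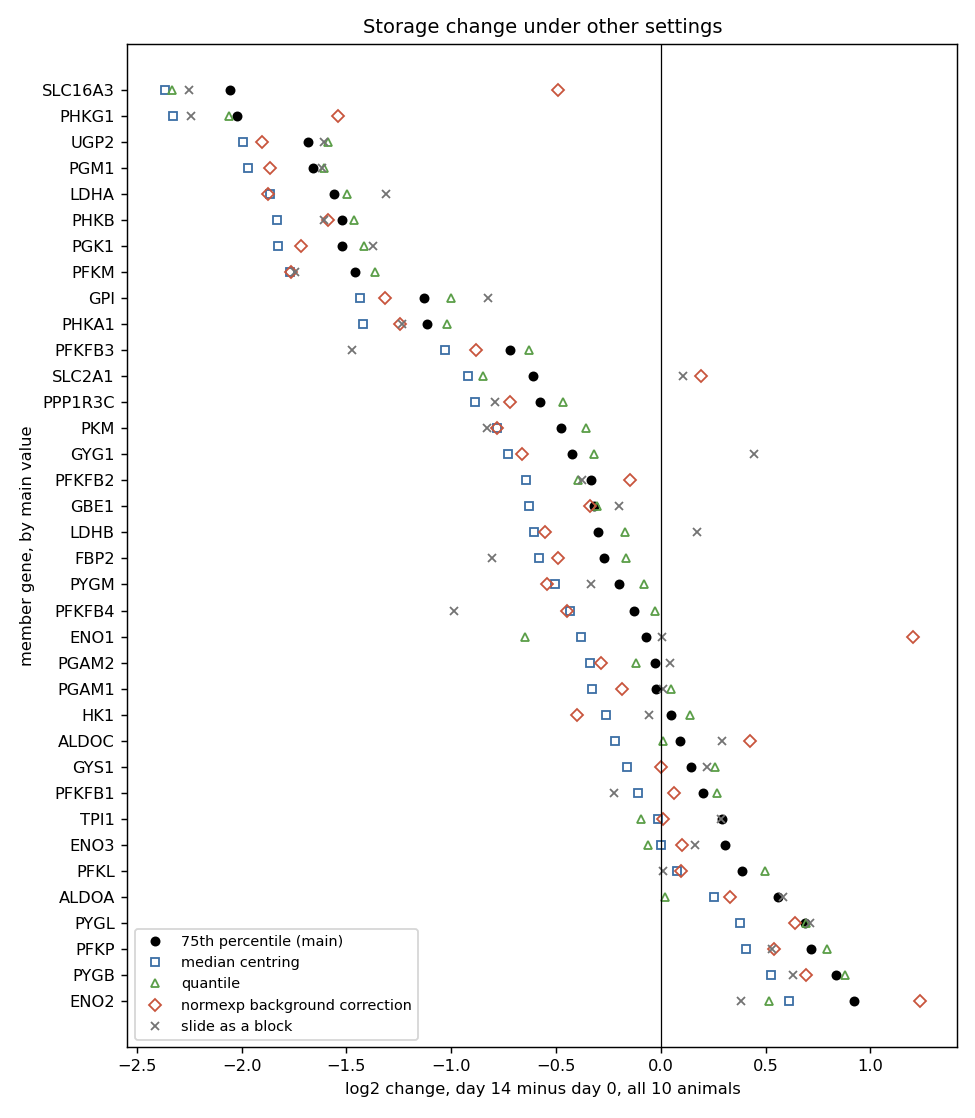
Storage change of the 36 tested members over all 10 animals (horizontal axis, log2 units, day 14 minus day 0) in the main scaling, with 3 other scalings or background corrections and with slide as a block. PHKG1, UGP2, PGM1, LDHA, PHKB, PGK1 and PFKM lie below -1.3 in every setting drawn, while SLC2A1 lies on both sides of 0.

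SLC16A3 encodes the transporter that exports lactate from fast muscle. It went from 7.71, 7.76, 7.41, 7.73 and 7.74 to 5.51, 4.14, 5.45, 4.99 and 6.57 in controls, and from 8.47, 7.36, 6.45, 7.15 and 7.45 to 5.97, 6.00, 5.88, 5.27 and 4.88 in treated animals. It was lower at day 14 in 10 of 10 animals, and the days did not overlap within either treatment. The change was -2.34 ± 0.35 in controls (adjusted p = 0.00116) and -1.78 ± 0.35 in treated animals (adjusted p = 0.00450). The probe is dim and lay below background on 1 control array at day 14, and after normexp correction the change over all animals was -0.49 (adjusted p = 0.0655). SLC2A1, the basal glucose transporter, fell by 0.61 ± 0.23 over all animals (adjusted p = 0.0278), lower in 7 of 10. That call was lost without K9 (adjusted p = 0.0720), DE29 (0.0604), DE30 (0.0805) or DE31 (0.0692), and the change was 0.19 under normexp and 0.11 with slide as a block.

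Among probes of the glycolytic enzymes the change differed by isoform and by step. Each of these enzymes had 1 probe, so differences between isoforms and differences between probes cannot be told apart. PFKM, the muscle phosphofructokinase that commits glucose to glycolysis, went from 15.17, 15.35, 14.90, 15.52 and 15.47 to 14.15, 12.92, 13.28, 12.83 and 14.84 in controls. In treated animals it went from 15.93, 14.75, 14.79, 15.15 and 15.44 to 14.17, 13.79, 14.68, 14.28 and 12.94. It was lower in 10 of 10 animals, by 1.46 ± 0.25 over all (adjusted p = 8.52e-05), with the smallest changes in DE30 (-0.11) and K10 (-0.63) and the largest in K9 (-2.68). The platelet isoform PFKP was higher in 10 of 10 animals, by 0.71 ± 0.16 (adjusted p = 0.00101), though DE27 (0.02) and DE30 (0.00) hardly moved. The liver isoform PFKL changed by 0.39 ± 0.19 and did not pass (adjusted p = 0.0975).

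LDHA, which turns pyruvate into lactate in fast fibres, went from 16.74, 16.75, 16.32, 16.67 and 16.48 to 15.69, 13.83, 14.32, 13.55 and 15.96 in controls, and from 16.12, 16.60, 15.65, 16.42 and 16.48 to 15.07, 14.86, 15.90, 15.44 and 14.01 in treated animals. It was lower in 9 of 10 animals, DE30 being the exception, by 1.56 ± 0.29 over all (adjusted p = 0.000160). LDHB changed by -0.30 ± 0.24 and did not pass (adjusted p = 0.307). PGK1, the first ATP-yielding kinase of the route, fell in 10 of 10 animals by 1.52 ± 0.22 (adjusted p = 1.00e-05), with changes from -2.77 in K9 to -0.41 in DE30. GPI, the isomerase between the phosphates of glucose and fructose, fell by 1.13 ± 0.27 (adjusted p = 0.00140), lower in 8 of 10 and higher in K10 and DE30.

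Other steps of the same route were not called lower in the main scaling. ALDOA, the muscle aldolase, rose by 0.56 ± 0.13 (adjusted p = 0.00112) and was higher in 9 of 10 animals; it went from 18.35, 18.15, 17.89, 17.98 and 17.61 to 18.34, 18.64, 18.26, 18.46 and 18.04 in controls and from 17.88, 18.09, 18.02, 17.79 and 17.79 to 18.24, 19.01, 18.66, 19.01 and 18.51 in treated animals. That rise depended on the scale: it was 0.25 (adjusted p = 0.0750) with median centring and 0.02 (adjusted p = 0.850) after quantile normalization. TPI1 changed by 0.29 ± 0.16 (adjusted p = 0.123), the muscle enolase ENO3 by 0.31 ± 0.14 (adjusted p = 0.0679), the muscle mutase PGAM2 by -0.03 ± 0.23 (adjusted p = 0.923) and pyruvate kinase PKM by -0.47 ± 0.21 (adjusted p = 0.0622). PKM was called lower with median centring (-0.78, adjusted p = 0.00423) and normexp (-0.78, adjusted p = 0.00597). ENO2, the enolase known from neurons, rose by 0.92 ± 0.33 (adjusted p = 0.0222), higher in 8 of 10. The change was smaller and not called with median centring (0.61, adjusted p = 0.112), after quantile normalization (0.52, adjusted p = 0.226) and in the deposited table (0.51, adjusted p = 0.229). The call was also lost without K3 (0.0506), K8 (0.0510), K9 (0.0662), DE30 (0.0553) or DE31 (0.0783). HK1, PGAM1, ALDOC and ENO1 changed by between -0.07 and 0.09 and did not pass. PGAM1 was called lower with median centring (-0.33, adjusted p = 0.0479) and HK1 with normexp (-0.40, adjusted p = 0.0190). ENO1, near background, was called lower with median centring (-0.38) and quantile normalization (-0.65) and higher with normexp (1.20). It was above background on 4 control and 1 treated array at day 0 and on 1 control array at day 14. ENO1 was tested only because of its day 0 arrays, so no p is given for these calls. ALDOA, TPI1, ENO3 and PGAM2 gave the strongest signal of the members, with means of 18.2, 17.7, 17.5 and 16.8, and no array marked a member as saturated. In signal before scaling, ALDOA was lower by 0.47 and LDHA by 2.58 on the log2 scale, means over 10 animals.

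A gene could move both ways by probe. GAPDH, the step between aldolase and PGK1 and no member, had 3 probes: from brightest to dimmest they changed with storage by 0.57 ± 0.16 (adjusted p = 0.00478), 0.04 ± 0.16 (adjusted p = 0.844) and -1.51 ± 0.26 (adjusted p = 7.29e-05). GBE1, the branching enzyme of glycogen, had 2: the brighter changed by -0.32 ± 0.22 (adjusted p = 0.232; with median centring -0.63, adjusted p = 0.0309) and the dimmer rose by 0.77 ± 0.18 (adjusted p = 0.00134). Both probes of PYGL rose, by 0.69 ± 0.16 and 0.61 ± 0.19. A storage value therefore belongs to a probe, and 32 of the 36 tested members had a single one on the array.

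In the main scaling none of the 5 genes of fructose bisphosphate control passed in any of the 3 storage comparisons. Over all animals FBP2 (-0.27 ± 0.21) was called lower with median centring (-0.58, adjusted p = 0.0277) and normexp (-0.49, adjusted p = 0.0414). PFKFB3 was lower at day 14 in 5 of 5 control animals, with changes from -2.70 in K10 to -0.25 in K3, and in 3 of 5 treated animals, while DE30 was higher by 2.51. Its change was -1.60 ± 0.63 in controls (adjusted p = 0.0641) and 0.16 ± 0.60 in treated animals (adjusted p = 0.867). PFKFB4 changed by -0.83 ± 0.35 in controls (adjusted p = 0.0771) and by 0.58 ± 0.56 in treated animals (adjusted p = 0.460), where DE30 was higher by 2.92 and DE31 by 1.05. Of all members PFKFB3 and PFKFB4 had the smallest p for a difference between treatments in the storage change, 1.75 ± 0.67 and 1.41 ± 0.66, with adjusted p = 0.997 for each. FBP2 was lower in 5 of 5 controls and in 2 of 5 treated animals and did not pass in either.

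**Figure D4:**
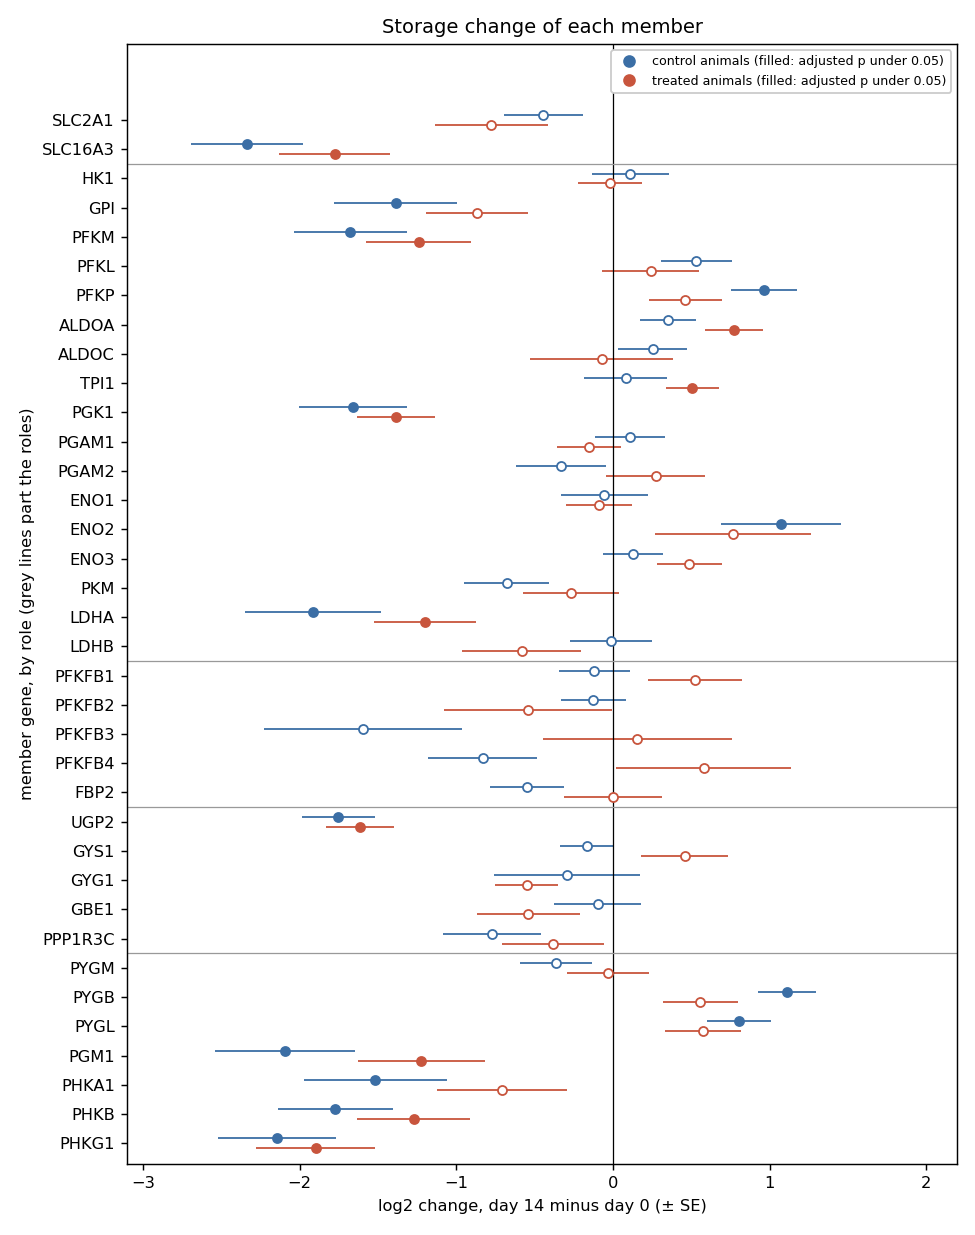
Storage change of the 36 tested members (horizontal axis, log2 units, day 14 minus day 0, ± SE) in 5 control (blue) and 5 treated (red) animals, ordered by role; filled points have an adjusted p under 0.05. SLC16A3, PFKM, PGK1, LDHA, UGP2, PGM1, PHKB and PHKG1 are filled on the lower side in both colours (PGM1 in treated animals not with animal as a block, adjusted p = 0.0690), and the genes of fructose bisphosphate control are open.

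Among the genes of glycogen synthesis UGP2, which makes the UDP-glucose that synthase consumes, gave the tightest fall of the set. It went from 12.96, 12.56, 12.48, 12.88 and 12.75 to 11.25, 10.70, 10.89, 10.38 and 11.65 in controls and from 12.79, 12.98, 12.60, 13.01 and 12.90 to 11.31, 11.38, 11.80, 11.05 and 10.64 in treated animals. Every day 14 sample was below every day 0 sample, and the fall was 1.68 ± 0.16 over all animals (3.22-fold, adjusted p = 6.44e-08), 1.75 ± 0.23 in controls and 1.62 ± 0.22 in treated animals. GYS1, glycogen synthase itself, changed by 0.14 ± 0.17 (adjusted p = 0.495). GYG1, the protein primer of glycogen, changed by -0.42 ± 0.26 (adjusted p = 0.176); it was called lower with median centring (-0.73, adjusted p = 0.0254). GYG1 was lower in 9 of 10 animals, and K10, at 13.53 on day 0 and 15.75 on day 14, went the other way. PPP1R3C fell by 0.58 ± 0.23 (adjusted p = 0.0417), lower in 8 of 10. The call was lost after quantile normalization (-0.47, adjusted p = 0.0917), with animal as a block (adjusted p = 0.0794), and without K3 (0.0872), K6 (0.0920), K9 (0.136), K10 (0.0596), DE29 (0.0766), DE31 (0.0727) or DE32 (0.107).

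Among the genes of glycogen breakdown the kinase subunits fell in the main scaling. PHKG1, the catalytic subunit of phosphorylase kinase in muscle, went from 9.86, 9.80, 9.77, 9.70 and 10.64 to 8.38, 7.07, 7.81, 6.87 and 8.94 in controls and from 10.01, 10.14, 9.53, 10.08 and 10.79 to 9.25, 7.29, 8.75, 8.35 and 7.42 in treated animals. Every day 14 sample was below every day 0 sample, and the fall was 2.02 ± 0.28 (4.06-fold, adjusted p = 6.45e-06). The regulatory subunit PHKB fell by 1.52 ± 0.27 in 10 of 10 animals (adjusted p = 0.000102) and PHKA1 by 1.11 ± 0.33 in 9 of 10 (adjusted p = 0.00777), DE30 being higher by 0.99. PGM1, which passes glucose phosphate from glycogen to glycolysis, fell by 1.66 ± 0.33 in 9 of 10 (adjusted p = 0.000274). PYGM, the muscle phosphorylase that this kinase activates, changed by -0.20 ± 0.18 and did not pass (adjusted p = 0.351), with changes from -1.22 in K9 to 0.35 in DE27. That depended on the scale: PYGM was called lower with median centring (-0.51, adjusted p = 0.0254) and normexp (-0.54, adjusted p = 0.0186), and not after quantile normalization (-0.08, adjusted p = 0.658).

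The other forms of phosphorylase rose. PYGB went from 9.37, 9.35, 9.75, 9.37 and 9.72 to 10.25, 10.99, 10.63, 10.86 and 10.38 in controls, with no overlap between the days, and from 10.04, 9.27, 9.33, 9.02 and 9.15 to 9.88, 9.91, 9.52, 9.79 and 10.49 in treated animals, where DE27 was lower. The rise was 0.83 ± 0.16 over all animals (adjusted p = 0.000187). PYGL, the liver form, rose by 0.69 ± 0.16 (adjusted p = 0.000977) in 9 of 10 animals. In controls the rises were 1.11 ± 0.18 and 0.80 ± 0.20 and passed, the latter not without K9 (adjusted p = 0.0511); in treated animals they were 0.56 ± 0.24 and 0.57 ± 0.24 and did not pass (adjusted p = 0.101 and 0.0940). The test of the difference between treated and control changes did not pass for either (adjusted p = 0.997 for each).

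**Figure D5:**
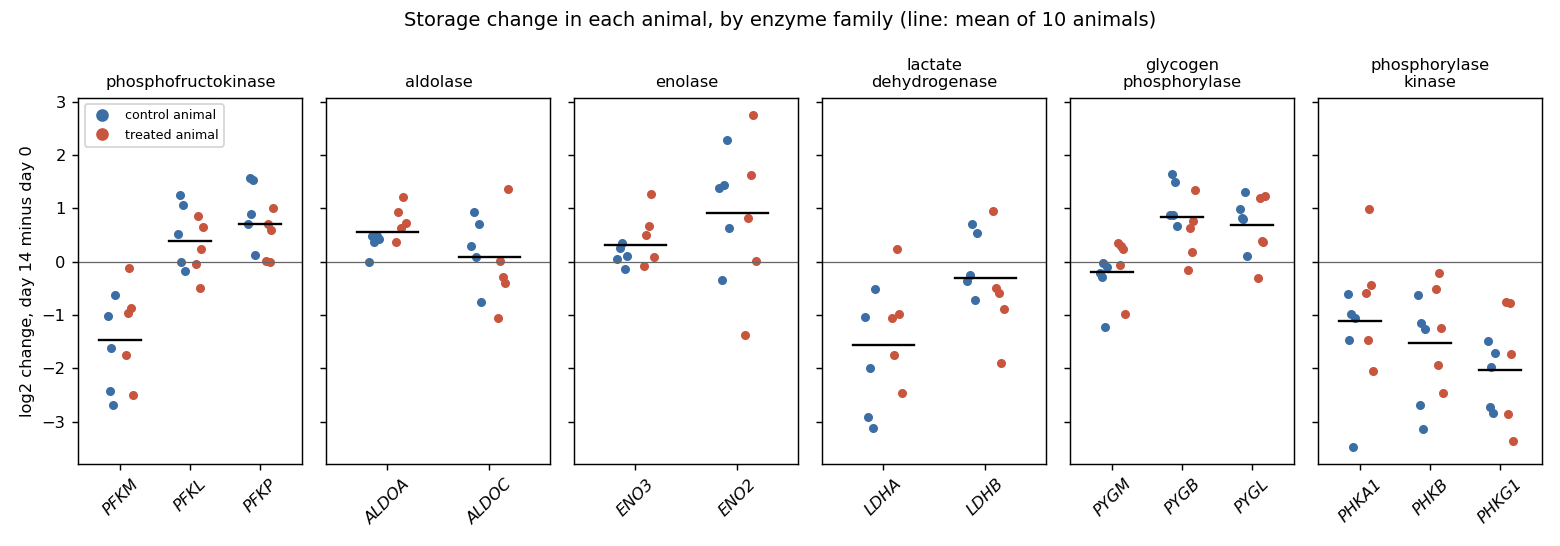
Storage change in each animal (vertical axis, log2 units, day 14 minus day 0) for the members of 6 enzyme families; blue points are control and red points treated animals, and the line is the mean of 10. PFKM lies below 0 in all 10 animals where PFKP does not, and the 3 phosphorylase kinase subunits average -1.11 to -2.02 where PYGM averages -0.20.

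Taken by treatment, 4 members rose and 10 fell in controls (38.9%, against 39.1% of all tested probes, 21.7% higher and 17.4% lower). In treated animals 2 rose and 8 fell (27.8%, against 29.6%, 17.8% higher and 11.8% lower). Over tested genes with 1 probe each, 18.6% were higher and 19% lower in controls, and 13.9% and 13.2% in treated animals. Called in both were 8, all lower: SLC16A3, PFKM, PGK1, LDHA, UGP2, PGM1, PHKB and PHKG1. The share of all tested probes called in both is not given here, so this count is no result about the set as a whole. With animal as a block, which pairs the days of a cow, PGM1 was not called in treated animals (adjusted p = 0.0690) and the other 7 were called in both. SLC16A3, PFKM, PGK1, UGP2, PHKB and PHKG1 were lower in all 10 animals, as were 10.1% of all tested probes, and PFKP was higher in all 10, as were 13.3%. The days did not overlap in controls for 8 members that were lower (11.9% of all tested probes were) and 3 that were higher (13.1%), and in treated animals for 5 that were lower (8.11%) and 1 that was higher (12.3%). Some calls were lost when any of several animals was left out, with the sign of the change kept. In controls GPI was lost without K6 (adjusted p = 0.0787), K8 (0.0559) or K9 (0.0901), PHKA1 without K6 (0.0619) or K9 (0.0780), and ENO2 without K3 (0.130), K8 (0.130), K9 (0.172) or K10 (0.0623). In treated animals PFKM was lost without DE31 (0.0520) or DE32 (0.0694), LDHA without DE29 (0.0902), DE31 (0.0558) or DE32 (0.0701), PGM1 without DE29 (0.152), DE31 (0.0834) or DE32 (0.132), PHKB without DE29 (0.0945), DE31 (0.0779) or DE32 (0.0990), and ALDOA without DE31 (0.0639). TPI1, called in treated animals at 0.51 ± 0.17 (adjusted p = 0.0405), was lost without any single animal, at 0.0616 to 0.153.

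The median storage change of glycogen genes was below that of glycolysis genes. Over all animals 6 of 12 glycogen genes were called lower and 2 higher, against 6 and 3 of 24 glycolysis genes. As shares, 50% of glycogen and 25.0% of glycolysis genes were called lower, beside 23.3% of all tested probes, and 16.7% and 12.5% higher, beside 31.2%. Over tested genes with 1 probe each, 25.6% were lower and 27.3% higher. The median change was -0.50 and -0.10, a gap of 0.40, and 0.10 over all tested probes. By role the medians were -1.33 for glucose entry and lactate export (2 genes), -0.02 for the 17 glycolytic enzymes, -0.27 for fructose bisphosphate control, -0.42 for glycogen synthesis and -1.11 for glycogen breakdown. The gap in controls was 0.45 and was 0.05 with slide as a block, where the day 0 side is the array of K10 alone against K3 and K8 at day 14, and fell to 0.20 without K9; in treated animals it was 0.50. For treatment the gap was -0.02 at day 0 and -0.08 at day 14. This is a description of the lists, with no test.

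The animals differed in how far the set moved. The mean change over all 36 members was -0.37, -0.65, -0.41, -0.98 and -0.25 in controls and -0.30, -0.46, 0.25, -0.25 and -0.75 in treated animals. K9, DE32 and K6 moved most and DE30 went the other way. The summed signal of smooth muscle and pericyte markers changed by 0.60, 2.27, 2.08, 1.66 and 0.35 in controls and -0.57, 0.10, -0.04, 0.36 and 1.90 in treated animals on the log2 scale. That of endothelial markers changed by 1.21, 0.64, 1.08, 1.51 and -0.06 in controls and -0.28, 1.15, 0.44, 0.51 and 1.05 in treated animals, with a different order of animals. That of muscle defining genes changed by -0.35, -0.22, -0.36, -0.82 and -0.01 in controls and 0.99, 0.15, 0.51, 0.82 and 0.04 in treated animals, lower in all controls and higher in all treated animals. The part of these lists in the member changes was not tested.

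Markers of other cells moved with storage too. Of all tested probes 31.2% were called higher and 23.3% lower over all animals. With 1 probe per tested gene these shares were 27.3% and 25.6%. In controls 21.7% of all tested probes were higher and 17.4% lower, and in treated animals 17.8% and 11.8%. All 6 smooth muscle and pericyte markers were called higher over all animals, with summed linear signal from 18278 to 23562 in controls at day 0 and from 23356 to 99608 at day 14, and from 16763 to 32562 and from 15194 to 62535 in treated animals. For endothelium 6 of 7 were called higher, with sums from 3973 to 5293 and from 4953 to 13100 in controls and from 5196 to 6735 and from 5552 to 12495 in treated animals. For fibroblasts 3 of 7 were called lower, with sums from 31401 to 66472 and from 18388 to 92222 in controls and from 28087 to 69869 and from 8205 to 40897 in treated animals. For lymphocytes 4 of 5 tested of 8 were called higher, with CD3D, CD79B and MS4A1 not above background, and for red blood cells 2 of 3 tested, with SLC4A1 not above background. Of 10 slow fibre genes 5 were called higher and 1 lower, and of 10 fast fibre genes 1 and 1. Of the 8 muscle defining genes 4 were called lower and 1 higher in controls, and 0 and 2 in treated animals. For adipocytes 2 of 6 tested markers were called lower over all animals and none higher, with LEP not above background. The part of these cells in the member changes was not tested.

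Other genes of the pathway were called in both directions after storage. Over all animals 10 of 18 other glycogen genes were lower and 2 higher, 7 and 4 of 18 other glycolysis and gluconeogenesis genes, 2 and 0 of 8 other transporters, and 9 and 1 of 29 genes of energy sensing and fuel choice, beside 23.3% lower and 31.2% higher over all tested probes. GYG2 and SLC2A12 are among the genes counted, and both passed the filter on dim probes only through their day 0 arrays. The counts describe the lists and are no result about them. The share called in either direction was 66.7% for other glycogen genes, 61.1% for other glycolysis genes, 25.0% for transporters and 34.5% for energy sensing, beside 54.6%. Over tested genes with 1 probe each, 25.6% were lower, 27.3% higher and 52.9% either. GYG2 was above background on all day 0 arrays and on none at day 14. With the dim group set at the lowest signal well above background, it was at least 2.23-fold lower in controls and at least 1.19-fold lower in treated animals at day 14. It was tested only because its day 0 arrays were above background, so no p is given. Its measured means were 5.53 and 2.86 in controls and 4.62 and 2.57 in treated animals. STBD1, which binds glycogen, fell by 1.70 ± 0.26 (adjusted p = 2.24e-05) and PPP1CB, a catalytic subunit of the phosphatase that PPP1R3C guides, by 1.24 ± 0.16 (adjusted p = 4.69e-06). PPP1R3A, the glycogen-targeting subunit of striated muscle, fell by 1.81 ± 0.30 in controls (adjusted p = 0.00175). PHKG2, the form of the phosphorylase kinase catalytic subunit known from liver, rose by 0.78 ± 0.12 (adjusted p = 1.86e-05), where PHKG1 fell. SLC2A12, a glucose transporter of muscle and fat and 1 of the 2 transporters counted as lower, fell by 2.01 ± 0.33. At day 14 it was above background on 2 of 5 control and 1 of 5 treated arrays only, so the size of that change rests largely on values at background. Like GYG2 it was tested only because its day 0 arrays were above background, so no p is given. SLC2A4 changed by -0.33 ± 0.22 (adjusted p = 0.200) and PDK4 by -0.35 ± 0.57 (adjusted p = 0.616).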

How the data were processed

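RNA from 20 muscle samples was read on 1-colour bovine Agilent arrays with cyanine 3, per the labels. The deposited scanner files give a background-subtracted intensity per spot, made with Feature Extraction 9.5.1.1 on design 015354, per the file headers. The authors also deposited a linear intensity table, normalized between arrays by a method not given in the sources used here (column medians 6.11 to 6.76 after log2), used as an alternative; the submitters' processing notes name R 2.11.1. Here the intensity was log2 transformed, every array had its own 75th percentile subtracted, 935 outlier and 1417 control spots were left out and spots of a probe averaged. Probes well above background on at least 5 arrays (15430 of 21475) were tested with limma 3.58.1 in R 4.3.3, with a threshold of 0.05 on the Benjamini-Hochberg adjusted p. Only the groups compared entered a fit, and storage over all animals was fitted on all 20 arrays with treatment as a covariate. Treatment and day came from titles and characteristics; a description field that contradicts the titles was not used.

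Day 14 and day 0 samples of 1 animal are paired by the animal's number. Their deviations from the group means correlated between -0.15 and 0.28, and the main storage fits were unpaired. Gene names came from the deposited annotation and a table of bovine genes (assembly ARS-UCD2.0); no genome position or sequence was used. A probe named FBP2 in the files carries the accession of FBP1 and was left to FBP1. In several-probe genes the brightest stood for the gene. Named genes were all members, in depth those that passed in any comparison or had the 4 smallest p, and of other pathway genes at most 6 per comparison that passed, plus GAPDH, SLC2A4, PRKAG3 and PDK4, with some items that the rule names not reported here; marker genes and GYG2 beside these were named after their values were seen. Intervals are 95% intervals of the moderated fit. Nothing says more of sampling than 1 sample per animal and day, and the number of animals limits the precision. The fits were tested on simulated data. Alternatives were 3 other scalings or background corrections, the deposited table, other filters, all probes of a gene, slide, scan day (added after the headers were seen) or animal as a block, and leaving out each animal. The members and lists were chosen with earlier results of these data known. Python 3.11.15, pandas 2.3.3, numpy 2.4.6 and matplotlib 3.10.9 made tables and figures.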

Additional observations from a re-analysis of the deposited data

Results flagged for a closer look

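Of 144 groups of 5 arrays examined, 7 held an array that stood apart from the other 4, where chance gives about 1 in 20. At control day 0, K8 was low for SLC16A3 (7.41, the others 7.71 to 7.76), PGM1 (15.7, the others 16.7 to 16.9) and PHKA1 (12.1, the others 13.2 to 13.4). K10 was low there for GYG1 (13.5, the others 15.5 to 16.1) and high for PHKG1 (10.6, the others 9.70 to 9.86). Treated animal DE30 was low for PHKA1 at day 0 (11.8, the others 12.8 to 13.1), and DE32 was low for PGAM2 at day 14 (15.9, the others 16.9 to 17.3).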

How the results depend on the processing

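The count of members called for treatment at day 0 (2) was 1 with no filter on dim probes and 1 over all arrays with animal as a random replicate block; leaving out each animal gave 0 to 2. Over both days (2) it was 1 with normexp background correction, 1 with no filter and 0 to 2 without each animal. With slide as a block the storage counts were 2 in controls (14), 0 in treated animals (10) and 5 over all animals (17), where the block leaves few arrays to compare; without each treated animal the treated count ran from 4 to 13. Over all tested probes the slide block gave 160 higher and 37 lower in controls, 0 and 0 in treated animals and 1467 and 807 over all animals. With animal as a replicate block, which pairs the days, the storage counts were 16 in controls, 8 in treated animals, where PGM1 and TPI1 lost their call, and 16 over all animals, where PPP1R3C did. The gap between glycolysis and glycogen medians for storage in controls (0.45) was 0.159 after quantile normalization and 0.0491 with slide as a block, and 0.204 to 0.629 without each animal. Over all animals it ran from 0.263 to 0.624 without each animal. For the treatment difference in the storage change (0.10) it was -0.233 after quantile normalization and -0.129 to 0.182 without each animal. Signs turned for SLC2A1 over all animals, at 0.192 with normexp and 0.107 with slide as a block, for TPI1 in treated animals, at -0.0815 after quantile normalization, and with normexp for HK1 over all animals (-0.400) and ENO1 in controls (1.08), treated animals (1.32) and all animals (1.20); the cause was not tested. Over the 36 tested members, the 7 comparisons and every alternative, 4280 values kept their side of the threshold (an uncalled value may change sign), 131 lost a call with the sign kept, 61 gained one with the sign kept and 7 turned sign with a call lost or gained. Probes near background, ENO1 above all, limit what their values show.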
